A study of Homo sapiens with 16 samples.

Results

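The epidermal differentiation complex is a cluster of genes on the long arm of chromosome 1 whose products build the surface of stratified epithelia. Its members were taken from the deposited table by symbol: every gene whose symbol starts with SPRR, LCE or S100A, and 15 others, among them FLG, IVL and LOR. This gave 61 of the 20166 gene symbols tested, none of them on more than 1 row. By role they are 11 small proline-rich protein genes (SPRR), 18 late cornified envelope genes (LCE), 17 S100A genes, 7 S100 fused-type genes, the envelope precursors IVL and LOR, 2 peptidoglycan recognition proteins (PGLYRP3 and PGLYRP4) and 4 others (CRCT1, KPRP, SMCP and LELP1).

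The measurements come from RWPE1, an established line of human prostate epithelium immortalised with a papillomavirus. Poly-A RNA was sequenced in 16 libraries: 4 of cells that over-express the T164A point mutant of a prostate gene (replicates 91 to 94), 6 of cells that over-express the wild type form (replicates 13 to 18), and 6 of cells with the empty vector, an altered pTRIPZ (replicates 1 to 6). The labels do not say whether a group is 1 clone or a pool of cells, nor whether the libraries of a group are separate cultures. The series' title places the work in the control of prostate differentiation.

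Small proline-rich proteins, involucrin, loricrin and the late cornified envelope proteins are joined by transglutaminases into the cornified envelope, the tough layer beneath the membrane of a terminally differentiated keratinocyte. Filaggrin and its relatives bundle keratin filaments inside such cells, and S100 proteins are small calcium sensors, some of which are antimicrobial and abundant in inflamed squamous epithelium. The prostate is a glandular epithelium of basal and luminal cells, and its cells switch on cornification genes in squamous metaplasia.

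The sequences just upstream of 4 members are shown because the SPRR, involucrin and filaggrin-type promoters are known for sites of AP-1, the Fos and Jun dimer, and because S100A9 gives a member without that motif. They are the 250 bases before the RefSeq gene start in GRCh38.p14, all on the plus strand: chr1:153001499-153001748 for SPRR3, chr1:153030953-153031202 for SPRR1B, chr1:152908296-152908545 for IVL and chr1:153357604-153357853 for S100A9. Capitals mark matches to TGANTCA, a form of the AP-1 site that reads as itself on the other strand.

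SPRR3: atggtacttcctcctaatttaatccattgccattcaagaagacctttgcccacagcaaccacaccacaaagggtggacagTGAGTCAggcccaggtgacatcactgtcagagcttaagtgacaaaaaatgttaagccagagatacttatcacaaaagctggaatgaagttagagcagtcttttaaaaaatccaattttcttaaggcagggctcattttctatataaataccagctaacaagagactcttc
SPRR1B: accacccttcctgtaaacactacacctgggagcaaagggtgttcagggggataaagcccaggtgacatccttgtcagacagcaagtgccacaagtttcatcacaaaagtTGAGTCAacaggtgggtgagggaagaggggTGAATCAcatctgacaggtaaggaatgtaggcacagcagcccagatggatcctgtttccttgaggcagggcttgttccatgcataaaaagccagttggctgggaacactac
IVL: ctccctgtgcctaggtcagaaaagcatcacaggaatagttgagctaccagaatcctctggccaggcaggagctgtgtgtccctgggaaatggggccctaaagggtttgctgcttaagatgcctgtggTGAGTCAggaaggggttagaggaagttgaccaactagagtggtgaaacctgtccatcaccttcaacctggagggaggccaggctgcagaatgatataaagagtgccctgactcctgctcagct
S100A9: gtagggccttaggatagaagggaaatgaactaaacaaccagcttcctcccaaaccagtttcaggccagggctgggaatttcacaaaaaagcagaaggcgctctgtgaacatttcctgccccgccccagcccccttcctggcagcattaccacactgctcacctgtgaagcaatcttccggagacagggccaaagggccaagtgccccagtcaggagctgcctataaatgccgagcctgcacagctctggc

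The match begins 170 bases before the start in SPRR3 and 123 bases before it in IVL, SPRR1B has matches at 141 and 111 bases, and S100A9 has none in this window. RefSeq promoter windows matched 55 of the 61 members, with 63 windows because some genes have several starts. TGANTCA was present in 19 of the 63 windows, or 30.2%, against 6.57% of 35116 windows over all genes. By role it was found in 6 of 8 SPRR windows, 6 of 7 fused-type windows, both windows of IVL and LOR, 4 of 23 S100A windows and 0 of 18 LCE windows. The letters GGAAG, the core of ETS factor sites, were found on either strand in 84.1% of member windows and 65.1% of all windows. TTNCNNAA, a form of the C/EBP site, was found in 50.8% and 33.2%, AACCNGTT, the site of grainyhead-like factors, in 4.76% and 1.49%, and TATAAA in 47.6% and 10.7%. CCNCNCCC, a form of the KLF and SP site, was about as frequent in member windows (52.4%) as in all windows (53.4%). These are matches of letters and do not show that a factor binds. The windows of all genes were not matched to member windows for base composition. Windows of near-copy genes, or of the same gene, are not independent of each other.

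The deposited values are on a log2 scale. Estimated depth was 12300000 to 19200000 reads per library, and 3 reads, taken as a floor, correspond to a log2 value of 2.30. Where 1 of the groups lies below the floor, the difference is a bound against it; where both do, no difference is given. Of the 61 members, 26 lay at or above the floor on average in T164A, 39 in wild type and 41 in vector libraries. T164A replicate 93 stood apart from the other T164A libraries, with median absolute log2 differences over genes of 0.204 to 0.234, against at most 0.0697 among the others. Wild type replicate 14 did so with 0.137 to 0.206, against at most 0.134 among the other wild type libraries. The summed level of all 61 members was 13.83 to 14.03 in the 4 T164A libraries, 14.75 to 15.24 in the 6 wild type libraries, and, in vector, 15.62 and 15.70 in replicates 1 and 2 and 15.97 to 16.19 in replicates 3 to 6.

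In T164A libraries 39 members were lower than in vector libraries and 2 were higher (limma, adjusted p below 0.05), where 27.2% of all genes were lower and 37.1% higher. The libraries of both groups did not overlap for 38 lower and 2 higher members, against 22.4% and 33.1% of all genes. With group means below the floor raised to it, so that differences are bounds, the median over the 61 members was -1.56, against 0.00 over all genes tested, and 33 members were lower by 2-fold or more, against 11.0% of all genes. In wild type libraries 34 members differed from vector libraries and all 34 were lower, where 45.5% of all genes differed and 24.5% were lower. For 32 members the wild type libraries lay below all vector libraries, against 14.8% of all genes, and for 0 members above them, against 14.6%. On the same terms the median was -0.54 over the members and 0.00 over all genes, and 19 members were lower by 2-fold or more, against 0.63% of all genes. Both comparisons use the same vector libraries and are therefore not independent of each other. In these bulk libraries, fewer cells of a type and less RNA per cell cannot be told apart.

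**Figure D1:**
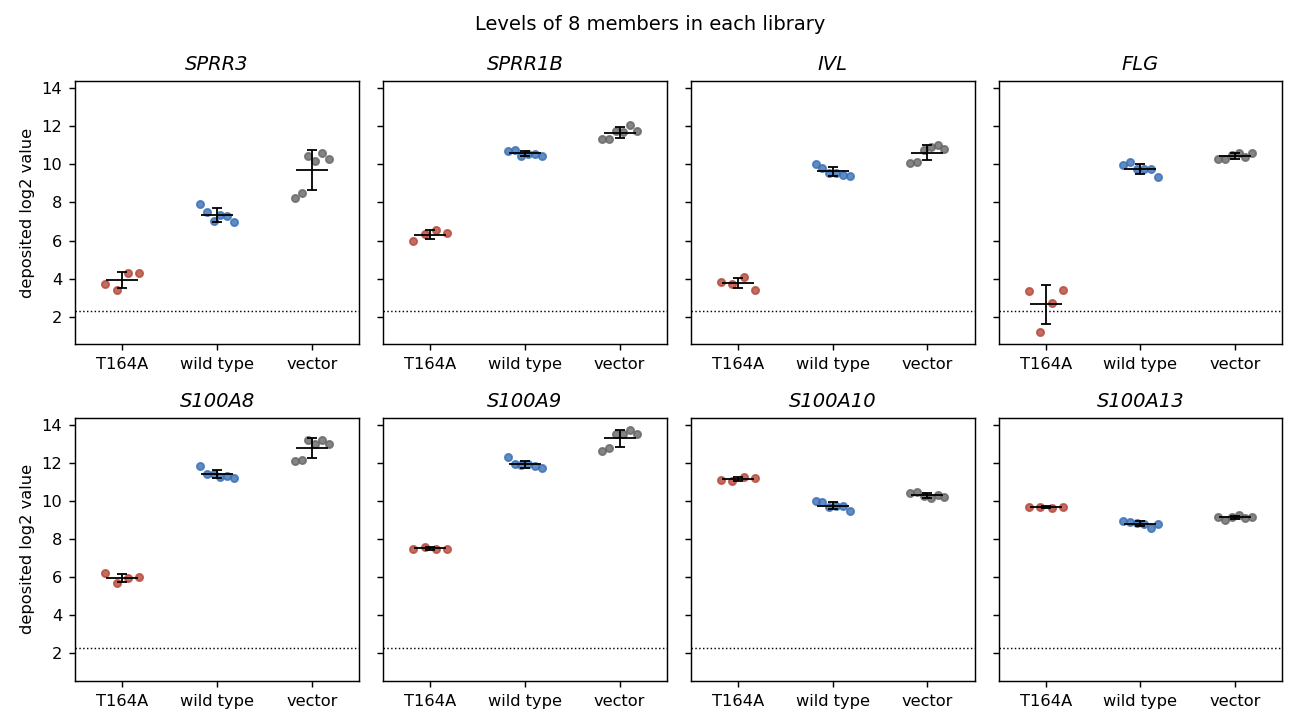
Deposited log2 value (vertical axis) of 8 members in every T164A, wild type and vector library; points are libraries, the long bar is the group mean, the whiskers are 1 SD and the dotted line is the floor of 3 reads at 2.30. SPRR3, SPRR1B, IVL, FLG, S100A8 and S100A9 are lowest in T164A and lower in wild type than in vector, without overlap, while S100A10 and S100A13 are highest in T164A and lowest in wild type.

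The small proline-rich proteins are cross-bridging precursors of the envelope. SPRR3, best known from the oesophagus, had log2 values of 3.70, 3.42, 4.29 and 4.27 in the T164A libraries, 6.96 to 7.94 with a median of 7.31 in wild type, and 8.26 to 10.57 with a median of 10.22 in vector. The groups did not overlap, but vector replicates 1 and 2 (8.26 and 8.51) lay nearer to wild type than to the other 4 vector libraries (10.16 to 10.57). The difference was -5.78 (SE 0.34, adjusted p = 5.83e-14) for T164A minus vector and -2.36 (SE 0.31, adjusted p = 5.37e-07) for wild type minus vector. Without vector replicates 1 and 2 the wild type difference was -3.02, and without replicates 3, 4 and 6 it was -1.77, with the call kept in both.

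SPRR1B, the cornifin of stressed and squamous airway epithelium, had values of 5.97, 6.35, 6.53 and 6.38 in T164A, 10.42 to 10.74 with a median of 10.55 in wild type, and 11.32 to 12.08 with a median of 11.72 in vector. Its spread was small in each group, and the groups were far apart: T164A differed from vector by -5.34 (SE 0.12, adjusted p = 2.23e-22) and wild type by -1.08 (SE 0.10, adjusted p = 4.1e-09). Its close relative SPRR1A gave 5.50, 5.66, 5.86 and 6.07 in T164A, 8.62 to 9.01 with a median of 8.79 in wild type, and 9.71 to 10.95 with a median of 10.49 in vector. The differences from vector were -4.55 (SE 0.17) and -1.51 (SE 0.16) for T164A and wild type, again without overlap.

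The SPRR2 genes are near copies of each other, so the split of reads between them is uncertain. SPRR2D had values of 3.40, 3.91, 4.23 and 4.07 in T164A, 6.93 to 7.62 with a median of 7.29 in wild type, and 8.01 to 8.92 with a median of 8.59 in vector. All 3 groups were separate, with differences from vector of -4.57 (SE 0.18) in T164A and -1.19 (SE 0.16) in wild type. SPRR2A was below the floor in every T164A library (0.14 to 1.84), which bounds its difference from vector at -5.01 or lower, and it differed by -2.15 (SE 0.37) in wild type. SPRR2E and SPRR2G fell as well in wild type, by 2.08 and 2.06 on the log2 scale. In all, 9 of the 11 SPRR genes fell in T164A and 8 fell in wild type, against 27.2% and 24.5% of all genes. The remaining SPRR2F and SPRR2C, a pseudogene by RefSeq, were below the floor in both T164A and vector, and SPRR4 was not called in wild type (difference -0.51, SE 0.57, adjusted p = 0.517).

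Involucrin, the first scaffold protein of the envelope, was among the members with the lowest T164A values against vector. IVL had log2 values of 3.82, 3.71, 4.07 and 3.42 in T164A, 9.40 to 10.01 with a median of 9.55 in wild type, and 10.09 to 11.03 with a median of 10.78 in vector. Wild type and vector lay side by side without overlap, the highest wild type library being replicate 13 and the lowest vector libraries replicates 1 and 2. The differences from vector were -6.86 (SE 0.16, adjusted p = 8.41e-22) for T164A, or 116-fold lower, and -0.99 (SE 0.14, adjusted p = 2.96e-06) for wild type, or 1.98-fold lower. Loricrin, the main envelope protein of the epidermis, was near the floor even in vector: LOR had 1.18, 1.21, -0.31 and 1.72 in T164A, 3.36 to 3.65 with a median of 3.55 in wild type, and 3.39 to 4.30 with a median of 3.90 in vector. It fell in T164A (difference at most -1.56), and it was not called in wild type (difference -0.33, SE 0.33, adjusted p = 0.464), whose libraries overlap those of vector.

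The S100 fused-type genes encode large repeat proteins with an S100-like start. All 7 fell in T164A and 4 of 7 fell in wild type, against 27.2% and 24.5% of all genes. Filaggrin, the keratin-bundling protein of the granular layer, gave FLG log2 values of 3.34, 1.18, 2.70 and 3.40 in T164A, 9.32 to 10.10 with a median of 9.75 in wild type, and 10.29 to 10.62 with a median of 10.44 in vector. The T164A libraries were far below the rest, and replicate 92 was under the floor. The difference was -7.79 (SE 0.26, adjusted p = 5.35e-19) for T164A minus vector, the largest among members above the floor in both groups, and -0.67 (SE 0.23, adjusted p = 0.0186) for wild type minus vector. The wild type call on FLG was lost without wild type replicate 18 (adjusted p = 0.0529), without vector replicates 3, 4 and 6 (adjusted p = 0.178), without the variance trend (adjusted p = 0.0796) and against a minimum fold of 1.2 (adjusted p = 0.169).

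Hornerin, a filaggrin relative, had HRNR values of 2.41, 0.99, -0.07 and 2.13 in T164A, 6.53 to 7.10 with a median of 6.98 in wild type, and 7.22 to 7.41 with a median of 7.37 in vector. It fell in T164A (difference at most -5.04). In wild type its difference of -0.47 (SE 0.27, adjusted p = 0.167) did not pass the test although the libraries did not overlap. That test shares a spread over all 3 groups, and the SD of HRNR was 1.14 in T164A, 0.24 in wild type and 0.07 in vector. Under 5 alternatives the wild type difference passed. Among them were a fit of only the 2 groups compared (adjusted p = 0.000755) and quantile normalization, at -0.69 (adjusted p = 0.0259). Trichohyalin, the protein of the inner root sheath of hair, had TCHH values of 3.98, 4.50, 4.36 and 4.03 in T164A, 7.73 to 8.42 with a median of 8.04 in wild type, and 8.34 to 9.32 with a median of 9.07 in vector. It fell in both, by 4.71 (SE 0.17) and 0.82 (SE 0.15) on the log2 scale, with some wild type libraries inside the vector range. Cornulin, a marker of squamous oesophagus, had CRNN values of 1.92, 1.83, 2.45 and 0.99 in T164A, 6.25 to 6.76 with a median of 6.56 in wild type, and 7.07 to 8.96 with a median of 8.66 in vector. Its differences were at most -5.94 in T164A and -1.70 (SE 0.28) in wild type, with no overlap. FLG2 and TCHHL1 fell in T164A, by bounds of -5.08 and -2.17, and gave -0.45 (SE 0.26) and 0.00 (SE 0.26) in wild type, neither called. The wild type SEs of FLG and FLG2 also share the wider T164A spread. The SD of FLG was 1.03 in T164A, 0.27 in wild type and 0.15 in vector. That of FLG2 was 1.03, 0.34 and 0.14.

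**Figure D2:**
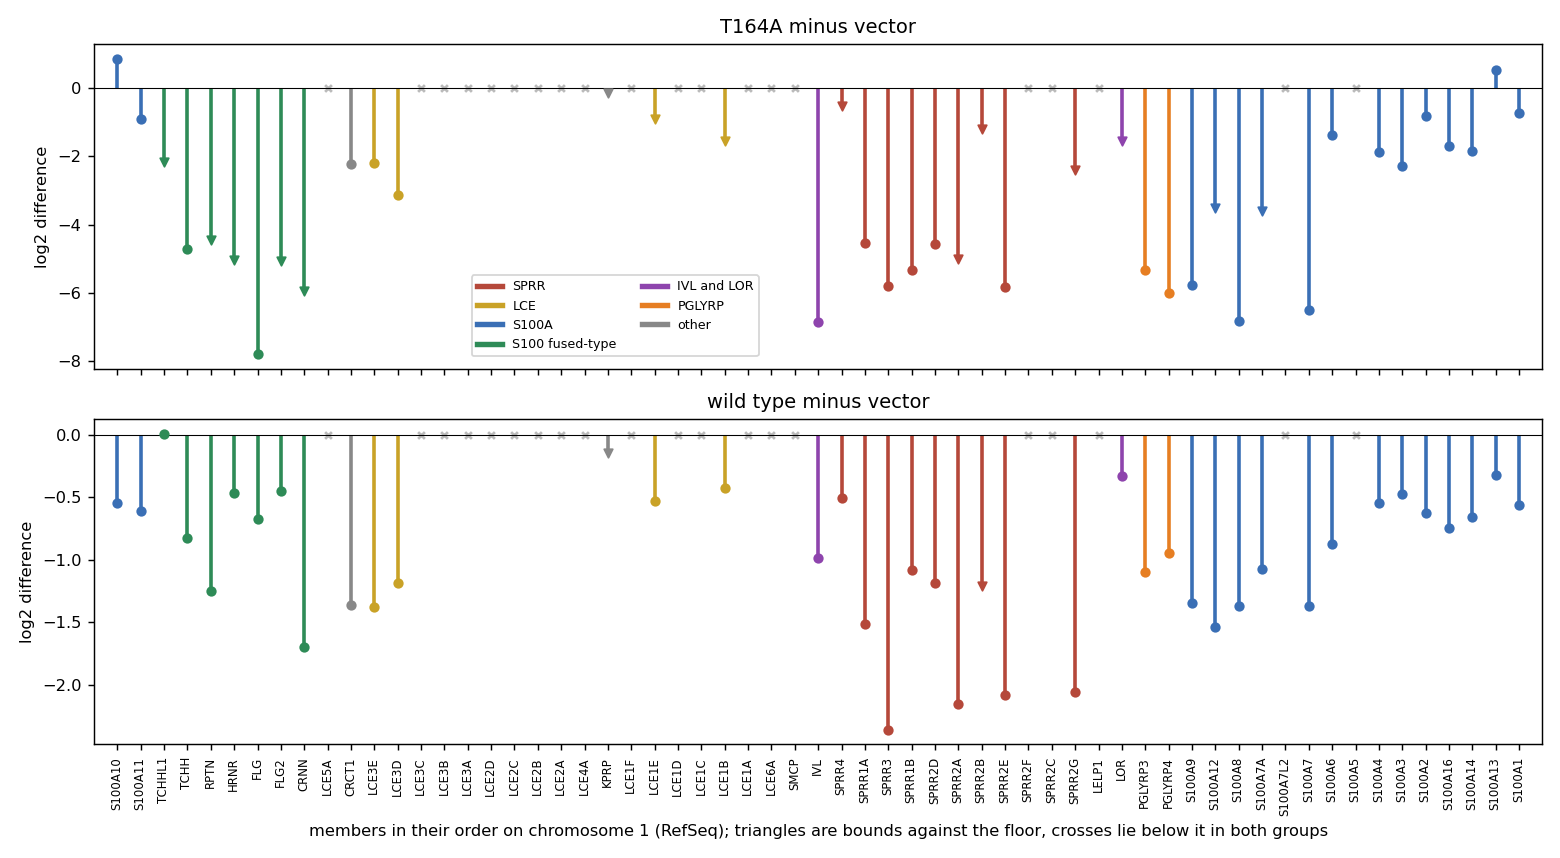
Log2 difference from vector (vertical axis) of the 61 members in their RefSeq order along chromosome 1, for T164A (top) and wild type (bottom), coloured by role; triangles are bounds against the floor and crosses are members below it in both groups. Downward stems run from the fused-type genes through IVL, SPRR, PGLYRP and the first S100A genes, the middle is mostly LCE genes below the floor, and S100A10 and S100A13 are the upward stems in T164A.

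Most of the 18 late cornified envelope genes were too low to be compared: 14 lay below the floor in both T164A and vector. LCE3D, of the LCE3 subgroup known from psoriasis genetics, had values of 3.42, 3.61, 2.24 and 3.62 in T164A, 4.69 to 5.66 with a median of 5.19 in wild type, and 5.88 to 6.76 with a median of 6.34 in vector. The groups were separate, with differences from vector of -3.13 (SE 0.25) and -1.19 (SE 0.23) for T164A and wild type. LCE3E, of the same subgroup, had 3.23, 3.28, 3.01 and 2.75 in T164A, 3.44 to 4.44 with a median of 3.83 in wild type, and 4.78 to 5.85 with a median of 5.27 in vector, also without overlap. Its differences were -2.21 (SE 0.27) and -1.38 (SE 0.24).

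LCE1B and LCE1E belong to a subgroup expressed in skin. LCE1B had -0.09, 0.09, 1.94 and -1.60 in T164A, 3.0 to 4.03 with a median of 3.31 in wild type, and 3.57 to 4.22 with a median of 3.82 in vector, while LCE1E had 0.99, 1.77, -0.03 and 1.06 in T164A, 2.06 to 3.40 with a median of 2.65 in wild type, and 2.49 to 3.63 with a median of 3.43 in vector. In both, T164A was below the floor and wild type overlapped vector. The T164A bounds were -1.57 and -0.90, and the wild type differences of -0.43 (adjusted p = 0.447) and -0.53 (adjusted p = 0.283) did not pass the test.

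Among the 17 S100A genes, 13 fell and 2 rose in T164A, and 15 fell in wild type. Of all genes, 27.2% fell and 37.1% rose in T164A, and 24.5% fell in wild type. Each library was also shifted by the median deviation of basal epithelial markers from their vector means. After this shift 7 of the S100A genes were lower and 5 higher in T164A, against 4.58% and 78.8% of all genes. In wild type 5 were lower and 1 higher, against 0.724% and 57.3% of all genes. S100A5 and S100A7L2, a pseudogene by RefSeq, were below the floor in every group. S100A9, which pairs with S100A8 as calprotectin, had log2 values of 7.47, 7.60, 7.46 and 7.50 in T164A, 11.74 to 12.29 with a median of 11.90 in wild type, and 12.64 to 13.73 with a median of 13.52 in vector. The T164A libraries agreed to within 0.06 (SD), and vector replicates 1 and 2 were again the lowest of vector, at 12.64 and 12.76. The difference was -5.77 (SE 0.15, adjusted p = 6.97e-21) for T164A minus vector and -1.35 (SE 0.14, adjusted p = 9.55e-09) for wild type minus vector. Its partner S100A8 gave -6.81 (SE 0.18) and -1.37 (SE 0.16), and psoriasin, the antimicrobial product of S100A7, gave -6.49 (SE 0.19) and -1.37 (SE 0.17).

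S100A10, which forms a heterotetramer with annexin A2 at the membrane, went the other way in T164A. Its values were 11.09, 11.05, 11.26 and 11.19 in T164A, 9.5 to 9.98 with a median of 9.72 in wild type, and 10.14 to 10.47 with a median of 10.28 in vector. No libraries overlapped, and the difference was 0.85 (SE 0.08, adjusted p = 8.73e-10) in T164A and -0.54 (SE 0.07, adjusted p = 9.72e-07) in wild type. S100A13, which takes part in the release of fibroblast growth factor from cells, had 9.71, 9.70, 9.61 and 9.66 in T164A, 8.6 to 8.97 with a median of 8.81 in wild type, and 8.99 to 9.27 with a median of 9.15 in vector. It rose by 0.54 (SE 0.07, adjusted p = 2.14e-07) in T164A and differed by -0.33 (SE 0.06, adjusted p = 0.000125) in wild type, where its highest library and the lowest vector library almost touch. This wild type call was lost with close libraries averaged (adjusted p = 0.119) and against a minimum fold of 1.2 (adjusted p = 0.462).

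S100A2, S100A6, S100A11 and S100A14 are S100 genes expressed in many epithelia. S100A14 had 10.94, 10.93, 11.02 and 11.07 in T164A, 11.95 to 12.49 with a median of 12.13 in wild type, and 12.75 to 12.96 with a median of 12.82 in vector. All groups were separate, with differences from vector of -1.85 (SE 0.08) and -0.66 (SE 0.07) in T164A and wild type. S100A6, or calcyclin, had 11.59, 11.40, 11.58 and 11.75 in T164A, 11.87 to 12.38 with a median of 12.07 in wild type, and 12.80 to 13.17 with a median of 12.94 in vector, which gives differences of -1.38 (SE 0.08) and -0.87 (SE 0.07) without overlap; the T164A difference was 0.16 with libraries shifted to the basal markers.

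S100A11, an annexin A1 partner, had 10.89, 10.93, 10.93 and 10.97 in T164A, 11.10 to 11.32 with a median of 11.25 in wild type, and 11.70 to 12.07 with a median of 11.82 in vector. The groups were separate, and the differences were -0.92 (SE 0.06) in T164A and -0.61 (SE 0.06) in wild type, but 0.62 and -0.02 with libraries shifted to the basal markers. S100A2, a target of p53-family factors in basal cells, had 11.75, 11.54, 11.80 and 11.97 in T164A, 11.80 to 12.29 with a median of 11.93 in wild type, and 12.47 to 12.74 with a median of 12.57 in vector. Both construct groups lay below all vector libraries and overlapped each other, with differences of -0.83 (SE 0.09) in T164A and -0.63 (SE 0.08) in wild type, against 0.72 and -0.03 after that shift.

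Along the chromosome S100A10 and S100A11 stand apart, and the other S100A genes form a single unbroken run among the members. The division used here cuts that run between S100A7 and S100A6. It was chosen after their values were seen, so the contrast between its parts is only a description. The 6 that stand between PGLYRP4 and S100A6 include S100A7, S100A8, S100A9 and S100A12, and 5 of them were above the floor on average. All 5 fell in T164A, with differences or bounds of -6.81 to -3.52, and in wild type, with differences of -1.54 to -1.08. Of the 11 others, S100A10 and S100A11 open the row of members at one end and S100A13 and S100A1 close it at the other, and 10 were above the floor. They ranged from -2.30 to 0.85 in T164A, where 8 fell and 2 rose, and from -0.87 to -0.33 in wild type, where all 10 fell. Of all genes, 27.2% fell and 37.1% rose in T164A, and 24.5% fell in wild type. With libraries shifted to the basal markers, 2 of these 10 S100A genes were lower and 5 higher in T164A, and 1 was lower and 1 higher in wild type. Of the first 5 all were lower in T164A and 4 in wild type. Over all genes that shift gave 4.58% lower and 78.8% higher in T164A, and 0.724% and 57.3% in wild type.

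The peptidoglycan recognition proteins PGLYRP3 and PGLYRP4 are secreted and bactericidal. PGLYRP3 had 2.28, 2.02, 2.59 and 3.12 in T164A, 6.51 to 6.95 with a median of 6.75 in wild type, and 7.44 to 8.28 with a median of 7.89 in vector. PGLYRP4 had 2.54, 2.74, 3.46 and 3.08 in T164A, 7.86 to 8.37 with a median of 7.96 in wild type, and 8.59 to 9.18 with a median of 9.06 in vector. Both were separate in all 3 groups, and T164A values lay near the floor, those of PGLYRP3 in replicates 91 and 92 just below it. The differences from vector were -5.33 (SE 0.19) and -6.00 (SE 0.16) in T164A, and -1.10 (SE 0.17) and -0.94 (SE 0.14) in wild type.

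Of the 4 remaining members, SMCP and LELP1 were below the floor in both T164A and vector, and KPRP barely reached it in vector. CRCT1, a cysteine-rich gene next to the LCE genes, had 3.49, 2.83, 3.1 and 3.57 in T164A, 3.35 to 4.56 with a median of 4.22 in wild type, and 4.81 to 6.3 with a median of 5.52 in vector. T164A and wild type overlapped and both lay below vector, by differences of -2.24 (SE 0.29) and -1.36 (SE 0.26).

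**Figure D3:**
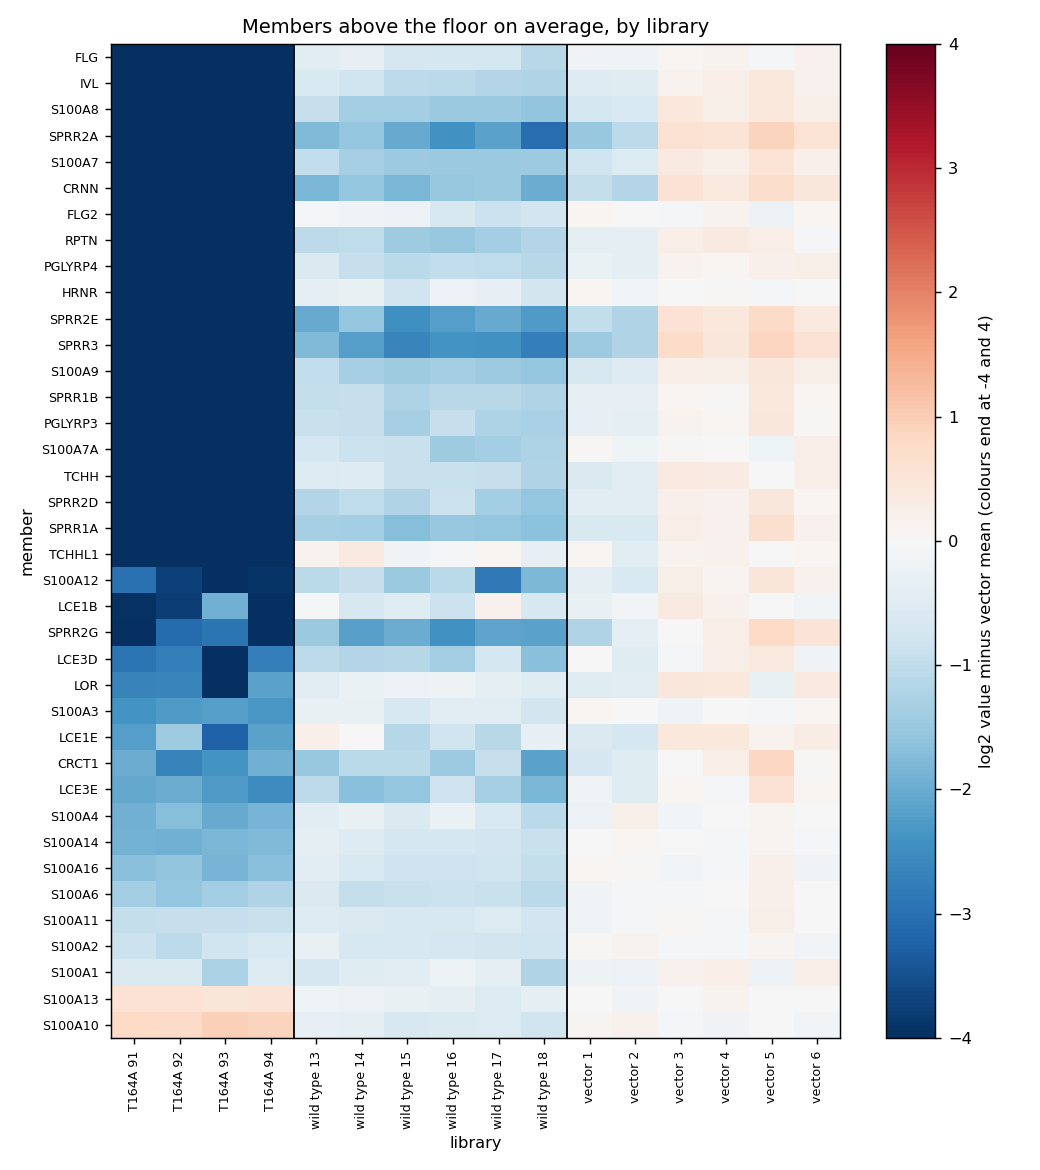
Log2 value minus the vector mean (colour, ending at -4 and 4) of the 38 members above the floor on average, one row each, in the 16 libraries ordered T164A, wild type, vector. The T164A columns are dark for most rows and pale red for S100A13 and S100A10, the wild type columns are pale blue in most rows, and vector replicates 1 and 2 are bluer than 3 to 6 in the SPRR, CRNN and S100A8 rows.

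Set directly against wild type, T164A was lower in 37 members and higher in 2, where 26.7% of all genes were lower and 35.1% higher. Their libraries did not overlap for 33 lower and 2 higher members, against 21.2% and 31.2% of all genes, and 27 members were lower by 2-fold or more with means raised to the floor, against 10.5%. FLG differed by -7.12 (SE 0.26), IVL by -5.88 (SE 0.16), S100A9 by -4.43 (SE 0.15) and SPRR3 by -3.42 (SE 0.34). The members that rose were again S100A10 (difference 1.39, SE 0.08) and S100A13 (difference 0.86, SE 0.07). The smallest called fall was that of S100A2, at -0.20 (SE 0.09, adjusted p = 0.0431), which passed the test only narrowly. Its call was lost without wild type replicate 13, 14 or 15, or T164A replicate 91 or 92 (adjusted p = 0.053 to 0.234 over these). Fitting only the groups compared (adjusted p = 0.0624), no variance trend (0.0991) and a minimum fold of 1.2 (0.935) also lost it. So did a pseudocount of 16 (0.052), close libraries averaged (0.238), and leaving out wild type 14 and T164A 93 together (0.0519). LCE1F was called lower although both groups lie below the floor, and no size is given for it.

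The fall of the members went with a fall of other epithelial genes. Of 17 basal epithelial markers such as KRT5, KRT14 and TP63, 13 were lower and 2 higher in T164A, with a median difference of -1.59. Over all genes 27.2% were lower and 37.1% higher. In wild type 16 of these markers were lower, against 24.5% of all genes, and 1 was higher (LAMA3), with a median of -0.58 over the markers. Their summed level was 17.2 to 17.4 in T164A, 17.6 to 18.1 in wild type and 18.4 to 18.6 in vector. Each library was then shifted by the median deviation of these markers from their vector means, so single markers could stay off their vector level. Before the shift KRT6A differed by -4.20 and KRT14 by -0.21 (not called) in T164A. After it 30 members were lower and 12 higher in T164A, against 4.58% of all genes lower and 78.8% higher. In wild type 22 members were lower and 2 higher, against 0.724% and 57.3% of all genes. Under this scaling SPRR3 differed by -4.24 in T164A and -1.77 in wild type, S100A9 by -4.23 and -0.75, and IVL by -5.32 and -0.39, all still called. FLG remained lower in T164A (difference -6.25) but not in wild type (difference -0.08, adjusted p = 0.756). Of the 12 higher in T164A, 7 lay below the floor in both groups, and the others were S100A1, S100A2, S100A10, S100A11 and S100A13. In wild type the 2 were S100A13, at 0.27, and LCE1F, which lies below the floor. Among members with a value or bound, 4 changed sign in T164A (S100A1, S100A2, S100A6 and S100A11) and 5 others lost their calls. In wild type 11 changed sign, S100A1, S100A3, S100A4, S100A10 and S100A13 among those called before, and 7 others lost their calls, including FLG, TCHH and S100A14.

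**Figure D4:**
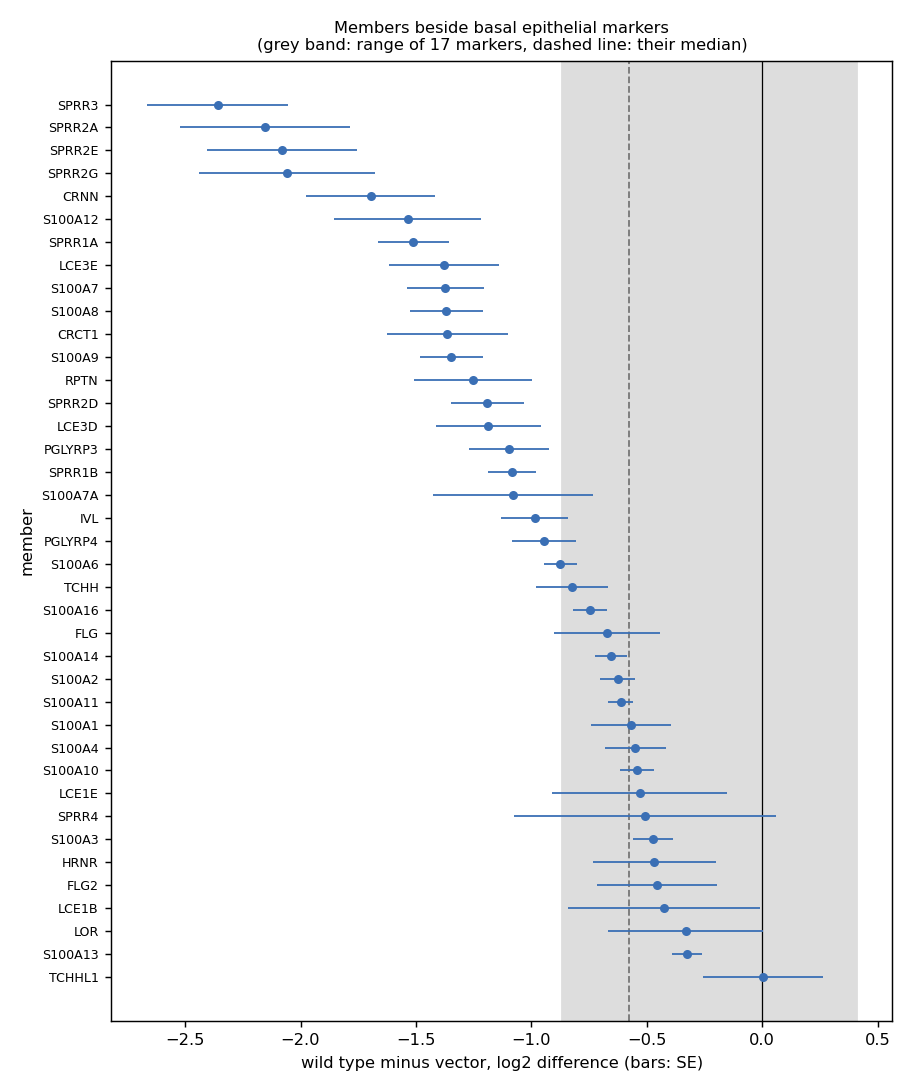
Wild type minus vector log2 difference (horizontal axis; bars are 1 SE) for each member with a value in both groups, beside the range of the 17 basal epithelial markers (grey band) and their median of -0.58 (dashed line). SPRR3 lies farthest to the left at -2.36, with SPRR2A, SPRR2E, SPRR2G and CRNN next, while FLG at -0.67, S100A10 at -0.54 and TCHHL1 at 0.00 lie within the band.

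Genes of other cell types were also present. All 13 prostate luminal markers were higher in wild type than in vector. In that comparison 45.5% of all genes differed in either direction. The summed level of the 13 markers was 10.8 to 10.9 in T164A, 15.7 to 16.8 in wild type and 9.18 to 9.34 in vector. KLK3, which encodes prostate-specific antigen, averaged 15.11 in wild type and lay below the floor on average in T164A and vector, where replicates 3, 4 and 6 were above it (3.76, 4.19 and 3.47) and replicates 1, 2 and 5 below it (0.01, 0.31 and 1.08). IRS4, picked earlier for its high level in the T164A libraries and given as a description, was at 13.63 ± 0.04 there (SD, n = 4) and below the floor on average in vector. An effect of the constructs on the members, and a different make-up of the cells in each group, cannot be told apart in this design. Of 10 leukocyte markers, 7, 7 and 6 were below the floor in T164A, wild type and vector, including MPO, CSF3R, LYZ and CD3E in all 3 groups, and the summed level was 8.16 to 8.65 in T164A, 8.73 to 8.91 in wild type and 9.38 to 9.90 in vector. The part of this list in the S100A8 and S100A9 values was not tested. Of 6 fibroblast and endothelial markers measured, 1 was higher and 3 were lower in T164A, and 2 were higher and 2 lower in wild type. Of all genes, 37.1% were higher and 27.2% lower in T164A, and in wild type 45.5% differed and 24.5% were lower. Summed levels of the 6 markers were 8.98 to 9.47 in T164A, 10.2 to 10.6 in wild type and 10.6 to 11.1 in vector.

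Cornification genes outside the complex fell with it. Of 26 such genes, all 26 were lower in T164A (median difference -4.04 with means raised to the floor), against 27.2% of all genes. In wild type 19 were lower, against 24.5% of all genes, and 1 was higher (median -0.63). KRT1, the early keratin of differentiating epidermis, averaged 3.64 ± 0.26 in T164A, 13.61 ± 0.20 in wild type and 14.31 ± 0.06 in vector (SD, n = 4, 6 and 6), with differences from vector of -10.67 in T164A and -0.70 in wild type. TGM1, the transglutaminase that links envelope proteins, differed by -3.57 in T164A and -0.51 in wild type. Elafin, encoded by PI3, differed by -4.03 and -1.67, and cystatin A, encoded by CSTA, by -4.05 and -1.05. The exception was TGM3, an epidermal transglutaminase, which averaged 5.36 ± 0.27 in wild type and 4.11 ± 0.31 in vector (SD, n = 6 each), a difference of 1.24, and was lower in T164A by a difference of -0.86.

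Of 20 transcription factors of epidermal differentiation, 17 were lower and 1 higher in T164A (median difference -1.86), against 27.2% and 37.1% of all genes. In wild type 18 were lower, against 24.5% of all genes, and 1 was higher (median -0.59). The 18 include SATB1, which lies below the floor in both wild type and vector, so no size is given for it. GRHL3 and ZNF750, which drive terminal differentiation, differed by -4.53 and -4.55 in T164A and by -0.95 and -0.75 in wild type. KLF4, a barrier regulator, differed by -2.34 and -0.56. JUNB, a partner in AP-1, differed by -2.25 and -0.63, while FOSL1, another, was not called in T164A (difference 0.05) and differed by -0.41 in wild type. EHF, an epithelial ETS factor, was the one that rose in wild type, with 11.65 ± 0.23 there and 9.49 ± 0.13 in vector (SD, n = 6 each; difference 2.16), and it fell in T164A (difference -4.58). SATB1, a chromatin organiser that acts on this complex in mouse epidermis, rose in T164A, with 9.35 ± 0.04 there (SD, n = 4), against a vector mean below the floor.

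Among 6 partners and receptors of S100 proteins, ANXA1 fell by 1.99 in T164A and by 0.97 in wild type. ANXA2, the partner of S100A10, averaged 12.44 ± 0.10 in T164A, 11.59 ± 0.12 in wild type and 12.26 ± 0.06 in vector (SD, n = 4, 6 and 6), so it had differences of 0.18 (adjusted p = 0.019) and -0.68 from vector. ANXA6 was higher in both, by 6.40 in T164A and 4.11 in wild type. CD36, a fatty acid translocase that binds S100A8 and S100A9, differed by -6.68 and -0.88. AGER, the receptor RAGE, was not called in T164A (difference -0.23) and differed by -0.28 in wild type, and TLR4 was below the floor in all groups.

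The genes that flank the complex on either side moved in both directions. Of 18 such genes, 11 were higher and 3 lower in T164A (median difference 0.30), and 8 were higher and 5 lower in wild type (median 0.06). Of all genes, 37.1% were higher and 27.2% lower in T164A, and in wild type 45.5% differed and 24.5% were lower. The 8 include LINGO4, which lies below the floor in both wild type and vector, so no size is given for it. ILF2, a double-stranded RNA binding protein, rose by 1.99 in T164A and by 0.31 in wild type, and SNX27, a sorting nexin, rose by 1.03 and 0.17. TUFT1 and SLC27A3 fell in both, by 0.96 and 0.84 in T164A and by 0.37 and 0.45 in wild type.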

How the data were processed

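Per the labels' protocols, poly-A RNA was isolated with a MagMAX-96 kit, prepared with TruSeq and run on an Illumina HiSeq. Tools and a build are named in the submitters' processing notes with no role or order: TopHat2 2.0.4, Cufflinks 2.0.2, CASAVA 1.8.2, DESeq and GRCh37. A single table of log2 values, 21594 rows long, was deposited by the authors; the sources used here do not say how the values were transformed. Once an offset of 1.89 is taken off, the antilog of every value above 11.5 lies within 0.05 of an even step (100%). The depths and the floor of 3 reads were set from this step. Between 10 and 10.5 only 8.29% to 11.4% did, about the share that evenly spread values would give. Hence no reads could be recovered and a count test was not used. The floor carries the step to levels where it was not seen. Some low values, such as LCE1B in T164A replicate 94 at -1.60, have antilogs below the offset and would give negative reads. All bounds, and the counts of members above the floor, rest on this assumed floor. Floors cover counting error only.

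Of rows sharing a symbol (1732 rows, 304 symbols) the one with the highest mean was kept, which left 20166 symbols. A single model of all 16 libraries was fitted in limma 3.58.1 (R 4.3.3), with moderated variances, a trend in the variance and 13 residual degrees of freedom. The 3 pairwise differences had two-sided tests, and their p-values were adjusted over all symbols by the Benjamini-Hochberg method, with a threshold of 0.05. Differences are of deposited values. If the offset also holds at low levels, where the step was not seen, those of low genes are understated. The script was tested on simulated data. No filter was applied in this fit. Promoter windows are the 250 bases before each start in RefSeq; because that annotation is GRCh38 and the notes name GRCh37, other genes have no coordinates here. Summed levels are the log2 of summed linear values. For medians over a list and counts of 2-fold falls, group means below the floor were raised to it. The sources used here do not state whether counting used strand or how near-identical and overlapping genes were counted.

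Libraries were grouped by their labels. As these do not name separate cultures, p-values measure only the spread between libraries, which may be technical. The members and lists were chosen with earlier results of these data known. Values in every library are given for SPRR3, FLG, IVL, S100A9, the 4 members of each role with the highest mean if above the floor, and members called against the main direction; other genes come from the lists. The gene the constructs carry is not reported here. Alternatives were quantile normalization, a filter on low values, a pseudocount of 16, a minimum fold of 1.2, no variance trend, array weights, fitting only the groups compared, means of repeated rows, close libraries averaged, scaling to basal markers, and leaving out libraries.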

Additional observations from a re-analysis of the deposited data

Results flagged for a closer look

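Dixon's test was applied to the 67 groups of 4 or 6 values with a mean above the floor, over the members described by library, and chance flags about 1 in 20 such groups; 2 were flagged. LCE3D in T164A replicate 93 was 2.24, against 3.42 to 3.62 in the other 3 T164A libraries. S100A2 in wild type replicate 13 was 12.29, against 11.80 to 11.96 in the other 5 wild type libraries.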

How the results depend on the processing

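No paired analysis was possible because the groups share no replicate numbers. Of 2016 values of the 72 named member results under the alternatives, 1975 kept their direction and side of the threshold. Many of these could not change direction. Averaging repeated rows changes no member's values, because no member is on more than 1 row. Leaving out a library of the third group, fitting only the groups compared, dropping the variance trend or asking a minimum fold keeps the difference. The count therefore overstates how far the results were put to the test. Leaving out 1 library gave 39 to 41 members lower and 2 to 3 higher for T164A against vector, 33 to 35 and 0 for wild type against vector, and 35 to 37 and 2 to 3 for T164A against wild type. Scaling to the basal markers gave 12 members higher in T164A, and 2 higher and 22 lower in wild type, against 78.8%, 57.3% and 0.724% of all genes. Among the members described by library it reversed S100A11 (0.62), S100A2 (0.72) and S100A6 (0.16) in T164A, and LCE1B (0.17), LCE1E (0.062), S100A10 (0.049), S100A13 (0.27), HRNR (0.13) and LOR (0.26) in wild type; it also reversed S100A1 in T164A (0.79) and S100A1, S100A3, S100A4, FLG2 and SPRR4 in wild type (0.026, 0.12, 0.044, 0.14 and 0.086). The cause was not tested. Averaging close libraries left 28 members lower in wild type, as did a minimum fold of 1.2. Leaving out vector replicates 1 and 2, or 3, 4 and 6, was chosen after seeing the data. It gave 35 and 30 lower in wild type, with LOR at 0.083 in the second. Closeness of libraries was judged over 11145 genes outside the members with a mean of at least 6. By it replicate 4 was about as near to replicate 5 (0.108) as to replicate 3 (0.110). For counts with libraries left out or averaged, or with a minimum fold, the share of all genes called is not given here. Those counts therefore cannot be set against a background. Quantile normalization moved the median of all 11167 genes with a mean of at least 6 by -0.17 for T164A minus vector and by -0.14 for T164A minus wild type. Scaling was not defined for T164A against wild type. Depth limits the LCE genes and the T164A values near the floor.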
